A study of Acidomyces sp. 'richmondensis' with 12 samples.

Results

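The strain difference examined here is that between mycelia lacking ArAceA (∆ArAceA) and wild-type mycelia (WT) of Acidomyces richmondensis MEY-1, all sampled 6 h after transfer to medium with 15 mM CuCl2. It rests on 6 of the 12 RNA-seq libraries of the study, chosen by the genotype and treatment in the labels, with 3 separate cultures of ∆ArAceA with copper and 3 of WT with copper. The other 6 libraries, 3 of ∆ArAceA and 3 of WT moved to the same medium without CuCl2, served to estimate each gene's spread and to ask whether the strain difference itself depended on copper. Both strains share the MEY-1 background, and no allele other than the deletion is given. How many independent transformants stand behind ∆ArAceA was not given in the sources used here, so a change carried by 1 isolate and an effect of the deletion cannot be told apart.

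Copper is an essential cofactor that becomes toxic in excess, and fungi keep its free level low by limiting uptake, by binding the metal to small proteins such as metallothioneins, and by pumping it out. In Aspergillus fumigatus, AceA is a copper-sensing transcription factor that turns on genes of detoxification when the metal is abundant, among them the P-type ATPase CrpA that exports copper. Acidomyces species are acid-loving ascomycetes found in metal-rich, acidic waters and soils. The genes here carry locus identifiers with no names or products, so the copper exporter, the metallothioneins, the uptake transporters and ArAceA itself could not be located, and the genotype rests on the labels alone. For the same reason no pathway list was described and roles are not given for the genes below.

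Levels were given as FPKM, the fragments per kilobase of transcript relative to library size. The FPKM of a library with copper summed to 884111, 886017 and 887948 in ∆ArAceA and to 919273, 907510 and 895804 in WT. Reads per library are unknown, and relative depths of 0.996 to 1.02 were read for these 6 libraries from the steps between low values. The reading used 125 genes and kept only values close to the lowest nonzero value of each gene. It could therefore miss a large difference in depth and does not show that the depths were equal. Across the 8741 genes tested, libraries of the same group correlated at r = 0.995 to 0.996, and a ∆ArAceA library with a WT library at 0.976 to 0.979, a description over genes that are not independent. The typical standard deviation of a gene among 3 cultures was 0.075 in ∆ArAceA and 0.078 in WT on the log2(FPKM + 1) scale, so fairly small differences between the strains exceed the spread between cultures.

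With copper the strains differed in many genes, mostly by a little. Of the 8741 genes, 3092 were higher and 994 lower in ∆ArAceA (limma's moderated test on log2(FPKM + 1), Benjamini-Hochberg adjusted p under 0.05), which is 35.4% and 11.4% of the genes tested and 46.7% in all. Among the higher genes, 883 differed by less than 1.2-fold, 1518 by 1.2-fold to 1.5-fold and 453 by 1.5-fold to 2-fold, by the fitted change. Among the lower genes, 301 lay under 1.2-fold, 419 between 1.2-fold and 1.5-fold and 160 between 1.5-fold and 2-fold. The 5th and the 95th percentile of all tested genes lay at -0.46 and 0.74 on the fitted log2 scale.

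At least 2-fold differences were found in 238 higher and 114 lower genes, 2.72% and 1.3% of those tested and 4.03% in all. A fitted change of 4-fold to 8-fold was found in 35 of the higher and 10 of the lower genes, and one of 8-fold or more in 6 and 8. In 236 of the 238 higher genes every ∆ArAceA culture stood above every WT culture, and in 113 of the 114 lower genes every ∆ArAceA culture stood below. These genes were chosen by their differences in the same libraries, so the separation largely restates that choice. Over all tested genes full separation was common too, at 43.1% upwards and 15.2% downwards.

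The balance of higher and lower genes depended on how the libraries were put on a common scale. In the FPKM as deposited the log2 difference of the median gene was 0.12, and 75.7% of the calls were higher in ∆ArAceA. Without copper the median gene also differed by 0.12. After rescaling each library by the median of ratios, which sets the median gene near 0, 1896 genes were higher and 1877 lower, or 50.3% higher. Of the 238 genes, 181 stayed at least 2-fold higher on that scale and all 238 were still called higher, while all 114 lower genes kept a call of at least 2-fold. Since this rescaling shifts all genes nearly alike, by about the median difference, a strong difference could not change direction under it. The shift was downward, so the 114 lower genes moved further from 0 and could hardly lose their size. That they all kept it is therefore no separate support. The split of all calls did change.

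**Figure D1:**
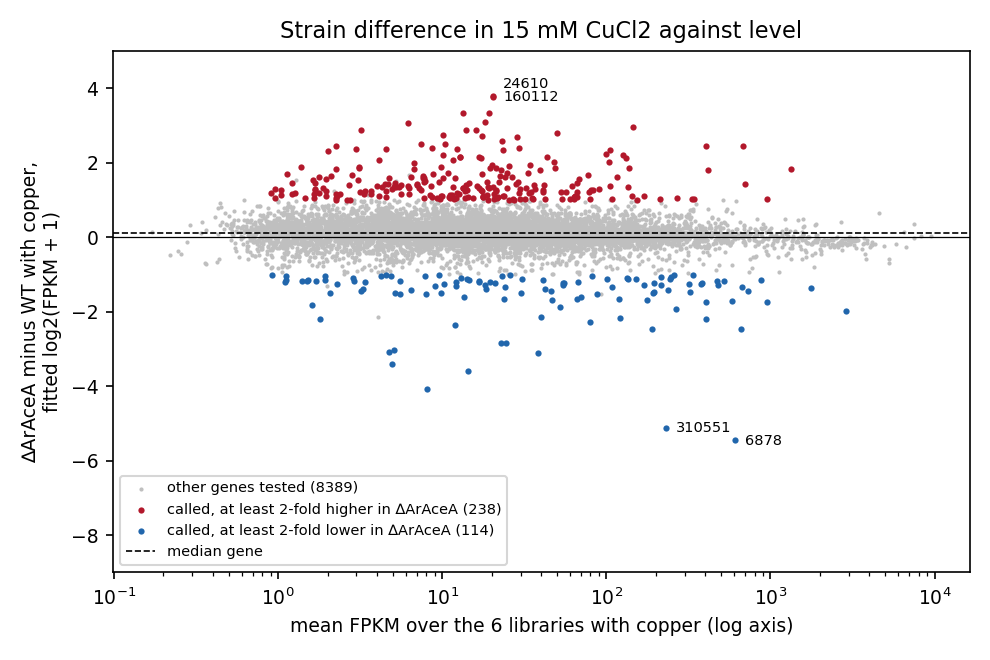
Fitted difference of ∆ArAceA from WT with copper (log2(FPKM + 1), vertical axis) against the mean FPKM over the 6 libraries with copper (log axis), 1 point per gene tested; red and blue points are the 238 higher and 114 lower genes of at least 2-fold, numbers give the last part of the identifier of the named genes, and the dashed line is the median gene at 0.12. The higher genes lie mostly at low and middling levels, as do most genes tested. The lower genes are spread along the axis and include the extreme values of M433DRAFT_6878 and M433DRAFT_310551.

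The direction of the difference changed with the level of the gene. Genes were divided by their mean FPKM over the 6 libraries with copper. Of the 304 genes at 500 FPKM or more, 52 were higher and 114 lower in ∆ArAceA, and their median log2 difference was -0.08. Of the 1871 genes under 5 FPKM, 457 were higher and 140 lower, with a median of 0.15. Of the 4509 genes from 5 to under 50 FPKM, 1795 were higher and 414 lower. These 3 directions held after median-of-ratios scaling, at 29 against 194, at 343 against 190 and at 1102 against 813, and after upper-quartile scaling, at 36 against 175, at 377 against 172 and at 1262 against 671. In the 2057 genes from 50 to under 500 FPKM the majority turned with the scaling, with 788 higher and 326 lower as deposited, 422 and 680 by the median of ratios, and 514 and 563 by the upper quartile.

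**Figure D2:**
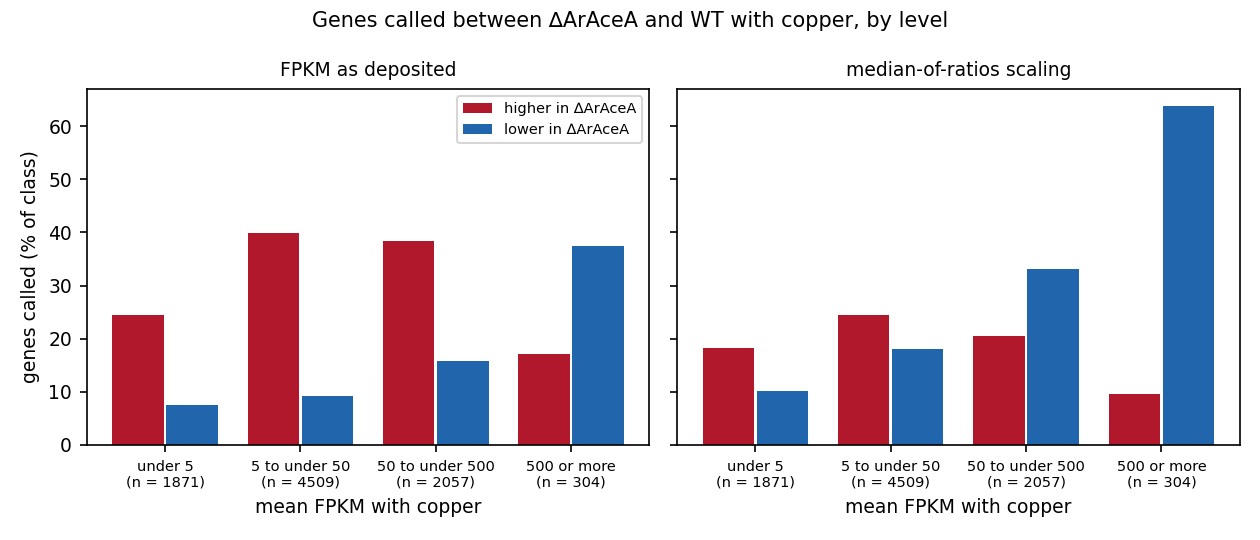
Share of genes called higher (red) or lower (blue) in ∆ArAceA than in WT with copper, in percent of each class of mean FPKM, from the FPKM as deposited (left) and after median-of-ratios scaling (right). In both panels the lower genes outnumber the higher ones in the class of 500 FPKM or more, at 114 against 52 and 194 against 29 genes, and the order is the opposite under 50 FPKM.

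The share of strong differences also varied with level, though not steadily. From the lowest to the highest class, genes at least 2-fold higher made up 3.05%, 3.08%, 1.85% and 1.32% of the genes. Genes at least 2-fold lower made up 1.28%, 0.887%, 1.94% and 3.29%. The shares of the highest class rest on 10 lower and fewer higher genes. In the highest class the 304 genes held 55.7%, 56.3% and 55.6% of the summed FPKM in the ∆ArAceA cultures with copper, against 59.4%, 59.0% and 58.9% in the WT cultures with copper. The 6380 genes under 50 FPKM held 11.8%, 11.5% and 11.9% in ∆ArAceA and 10.1%, 10.2% and 10.4% in WT. The values of the strains did not overlap in either class. Without copper the same 304 genes held 53.4%, 53.3% and 53.4% in ∆ArAceA and 58.5%, 58.9% and 59.5% in WT. The 6380 genes held 12.8%, 12.8% and 12.7% in ∆ArAceA and 10.5%, 10.7% and 10.2% in WT without copper. These differences in share were thus not particular to copper, and no test compared the media.

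The most abundant transcripts took a smaller share in ∆ArAceA when counted within each library as well. With the 100 top genes taken anew in every library, they made up 34.5 ± 0.178% of the summed FPKM in ∆ArAceA and 37.2 ± 0.332% in WT (mean ± SD, n = 3 cultures each), a difference of -2.66 percentage points. The number of genes listed at 0 was 456 ± 5.51 in ∆ArAceA and 514 ± 10.97 in WT (SD, n = 3 each). For both measures all 3 ∆ArAceA cultures lay below all 3 WT cultures. The exact two-sided permutation test gave p = 0.1, the smallest that 3 cultures against 3 allow. Without copper, genes listed at 0 numbered 475, 457 and 481 in ∆ArAceA and 568, 598 and 564 in WT. The lower number in ∆ArAceA was thus not particular to copper. FPKM is relative to the library total, so less RNA from the abundant genes and more from the remainder cannot be told apart here, nor can fewer cells of a kind and less RNA per cell.

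A small number of abundant genes made up much of the FPKM that ∆ArAceA lacked with copper. Summed over the 994 lower genes, the group means of ∆ArAceA were 75086 FPKM below those of WT, and 46 genes made up 50% of that amount. Over the 3092 higher genes the group means of ∆ArAceA were 55605 FPKM above those of WT, and 161 genes made up 50%. The lists differ in length, so these numbers of genes cannot be compared directly. The 10 genes that lost most FPKM fell by 992 to 3428 FPKM each, had WT means of 1139 to 7282 FPKM, and included 4 with a change of at least 2-fold. The 10 that gained most rose by 461 to 2050 FPKM, had WT means of 125 to 6187 FPKM, and included 6 with a change of at least 2-fold. After median-of-ratios scaling the sums were 130225 FPKM lost and 33610 FPKM gained, so the amounts depended on the scaling. On that scale 75 of 1877 lower genes and 86 of 1896 higher genes made up 50%. The lists differ in length between the scalings too, so these numbers of genes do not show whether the concentration changed.

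The 238 strongly higher genes of ∆ArAceA with copper had a level near that of the typical gene in ∆ArAceA and a lower one in WT. Their median was 21.4 FPKM in ∆ArAceA (quartiles 8.02 and 47.6) and 6.92 FPKM in WT (quartiles 2.30 and 17.5). For all genes tested the median was 21.3 FPKM in ∆ArAceA (quartiles 6.66 and 56.7) and 19.0 FPKM in WT (quartiles 5.92 and 53.3). Together they held 1.96%, 1.84% and 1.92% of the FPKM in the ∆ArAceA cultures and 0.648%, 0.653% and 0.603% in the WT cultures. The gaps between the strains in median and share restate how the 238 genes were chosen. The ratio of group means was at least 4-fold in 66 genes and at least 8-fold in 16, leaving aside genes listed at 0 in all WT cultures. The most abundant of them averaged 2074 FPKM in ∆ArAceA.

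M433DRAFT_24610 had the largest fitted rise, with 39.3, 35.6 and 41.0 FPKM in the ∆ArAceA cultures and 2.13, 1.70 and 1.79 FPKM in the WT cultures with copper. The strains were far apart and the cultures of each lay close together, with a fitted difference of 3.79 (SE 0.083, limma adjusted p = 3.65e-12). Without copper the gene stood at 43.2, 43.5 and 38.9 FPKM in ∆ArAceA and at 1.66, 1.88 and 1.64 FPKM in WT, and the change of the strain difference with copper was not called (-0.19, SE 0.117, limma adjusted p = 0.212).

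M433DRAFT_160112 was second, at 45.5, 31.4 and 39.3 FPKM in ∆ArAceA and 2.28, 2.09 and 1.39 FPKM in WT with copper. Its cultures varied more, but the lowest ∆ArAceA value was still far above the highest WT value, and the fitted difference was 3.76 (SE 0.137, limma adjusted p = 3.92e-10). Without copper it had 29.3, 34.3 and 30.5 FPKM in ∆ArAceA and 0.79, 0.6 and 0.69 FPKM in WT. The change of its strain difference with copper, -0.49 (SE 0.194), narrowly missed the threshold (limma adjusted p = 0.0539). Both genes thus stood high in ∆ArAceA in either medium.

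The 114 genes at least 2-fold lower in ∆ArAceA with copper were more abundant in WT than the typical gene. Their median was 14.5 FPKM in ∆ArAceA (quartiles 2.83 and 97.9) and 44.4 FPKM in WT (quartiles 10.2 and 287), against 21.3 and 19.0 FPKM for all genes tested. They held 1.09%, 1.15% and 0.968% of the FPKM in the ∆ArAceA cultures and 3.15%, 3.45% and 2.92% in the WT cultures. Again the gaps between the strains in median and share restate how the 114 genes were chosen. The ratio of group means was at least 4-fold in 27 genes and at least 8-fold in 8, leaving aside those listed at 0 in all ∆ArAceA cultures.

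M433DRAFT_310551 was at 12.9, 10.6 and 12.03 FPKM in the ∆ArAceA cultures with copper, against 471, 464 and 407 FPKM in the WT cultures with copper. The values of the strains were 37.7-fold apart by their means, with little spread in either. The fitted difference was -5.12 (SE 0.074, limma adjusted p = 3.51e-14). Without copper the levels were 13.4, 14.8 and 13.2 FPKM in ∆ArAceA and 15.2, 15.9 and 15.6 FPKM in WT. The WT cultures with copper thus stood alone, while the other 3 groups lay between 10.6 and 15.9 FPKM.

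M433DRAFT_6878, an abundant transcript of WT, was at 5.09, 209 and 12 FPKM in ∆ArAceA with copper and at 1007, 1434 and 976 FPKM in WT with copper. The ∆ArAceA cultures disagreed widely among themselves, yet all lay below the WT cultures, and the fitted difference was -5.46 (SE 1.11, limma adjusted p = 0.00398). Leaving out ∆ArAceA replicate 2, the culture at 209 FPKM, gave -6.98, and leaving out replicate 1 gave -4.43. In a fit of the 6 libraries with copper alone the adjusted p was 0.0463. Without copper the gene had 937, 1015 and 840 FPKM in ∆ArAceA and 2499, 1480 and 2728 FPKM in WT, and the change of the strain difference was not called (-4.24, SE 1.57, limma adjusted p = 0.0559).

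Such disagreement among cultures was rare. Of the genes that averaged at least 5 FPKM, the highest culture reached at least 2-fold the lowest in 23 of 6939 genes in ∆ArAceA and in 24 of 6749 in WT, or 0.331% and 0.356%. Genes seen in only 1 strain were few and mostly of very low level. With copper 15 genes were listed at 0 in all 3 ∆ArAceA cultures and above 0 in all 3 WT cultures, where their means ran from 0.05 to 16.1 FPKM with a median of 0.44 FPKM. The opposite held for 22 genes, with ∆ArAceA means from 0.053 to 6.37 FPKM and a median of 0.407 FPKM. A listing at 0 does not show that a gene was silent, and no fold is given for these genes.

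The strain differences with copper were then set beside those without copper, which come from other cultures and share no library with them. Both were tested in the same fit with a shared estimate of each gene's spread. A gene of small spread is thus more easily called in both media, and the calls are not independent. Of the 3092 genes higher in ∆ArAceA with copper, 56.6% were also called higher without copper and 12.7% were called lower, against 40.8% and 17.9% of all genes tested, where 58.7% were called without copper. Of the 994 genes lower with copper, 42.6% were called lower without copper and 22.1% higher. After median-of-ratios scaling the shares were 54.7% higher and 18.6% lower for the higher genes, and 52.9% lower and 14.3% higher for the lower genes, against 30.9% higher and 31.6% lower among all genes. Calls without copper in the same direction were therefore more frequent in these lists than among all genes, and calls in the opposite direction less frequent. Reversals were still not rare.

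Among the 238 strongly higher genes, 195 were called higher without copper as well (81.9%, against 40.8% of all genes), 35 were not called and 8 were called lower. Of the 195, 141 were at least 2-fold higher in both media, or 59.2% of the 238 against 7.99% of all genes without copper. These 141 had medians of 20.7 FPKM in ∆ArAceA and 6.67 FPKM in WT with copper, and of 28.4 FPKM in ∆ArAceA and 5.54 FPKM in WT without copper. Another 97 genes were not called 2-fold higher without copper. They had medians of 21.8 FPKM in ∆ArAceA and 7.22 FPKM in WT with copper, against 7.32 FPKM and 5.80 FPKM without copper. By these medians ∆ArAceA with copper stood apart from the other 3 groups in the 97 genes, whereas both ∆ArAceA groups stood above both WT groups in the 141 genes. Both classes were chosen by the strain difference in each medium, so the gaps between the strains restate that choice.

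Of the 114 strongly lower genes, 56 were called lower without copper (49.1%, against 17.9% of all genes), 39 were not called and 19 were called higher. The 22 genes at least 2-fold lower in both media were 19.3% of the 114, against 0.767% of all genes without copper, and had medians of 12.7 FPKM in ∆ArAceA and 44.4 FPKM in WT with copper, and of 10.04 FPKM and 36.5 FPKM without. The other 92 genes stood at a median of 14.5 FPKM in ∆ArAceA and 52.5 FPKM in WT with copper, against 35.9 FPKM and 41.1 FPKM without copper. Here too the gaps between the strains restate how the classes were chosen. No test compared the overlap of the higher lists with that of the lower lists.

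**Figure D3:**
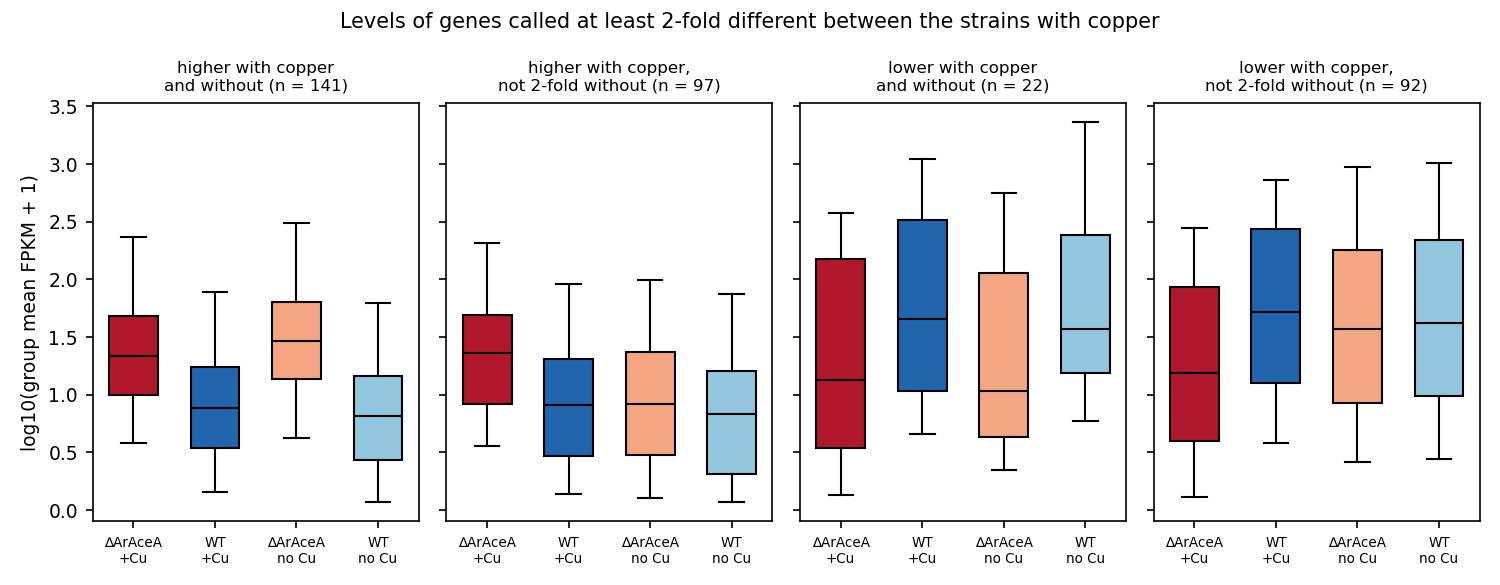
Levels of the genes at least 2-fold different between the strains with copper, as log10 of the group mean FPKM plus 1, in 4 classes by whether the difference was also at least 2-fold without copper (141, 97, 22 and 92 genes); boxes span the quartiles with the median as a line, and whiskers reach the 5th and 95th percentiles. In the second and the fourth panel ∆ArAceA with copper departs from the other 3 groups, with medians of 21.8 and 14.5 FPKM. The gaps between the strains in each medium restate how the classes were chosen.

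Whether the strain difference itself changed with copper was tested in the fit of all 12 libraries, as the difference with copper minus the difference without. It was called in 4006 genes, 45.8% of those tested, with 1770 more positive (20.2%) and 2236 more negative (25.6%) with copper. Changes of at least 2-fold were negative in 417 genes (4.77%) and positive in 92 (1.05%). After upper-quartile scaling all calls were split evenly, with 2062 more positive and 2060 more negative, and changes of at least 2-fold numbered 381 negative and 100 positive. Of the 97 genes that passed as 2-fold higher with copper and not without, 77 had a called change and 20 did not. Of the 92 genes that passed as 2-fold lower with copper and not without, 70 had a called change and 22 did not. Of the 141 genes higher in both media, 71 had a smaller difference with copper, 9 a larger one and 61 no called change. The copper libraries enter both the choice of these genes and this test, so the counts describe the classes and are no separate evidence.

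Some genes differed in opposite directions in the 2 media. The 8 genes strongly higher with copper and called lower without had medians of 36.0 FPKM in ∆ArAceA and 14.8 FPKM in WT with copper, and of 7.81 FPKM and 11.3 FPKM without. The 19 genes strongly lower with copper and called higher without had medians of 5.62 FPKM in ∆ArAceA and 14.8 FPKM in WT with copper, against 21.5 FPKM and 9.84 FPKM without. After median-of-ratios scaling all 8 kept the call without copper, as did 12 of the 19. The rescaling moved the strain differences without copper downward. The 8 genes, called lower in that medium, could therefore hardly lose their call, and keeping it is no separate support. The 19 genes, called higher, were moved toward losing theirs, and 12 kept it against that shift. The contrast between the classes thus follows the direction of the shift and does not show which calls were firmer. Both classes were chosen for calls in opposite directions, so the opposite order of their medians restates that choice.

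M433DRAFT_131828 had the most positive change. It was at 7.40, 16.5 and 11.5 FPKM in ∆ArAceA and at 0.57, 1.01 and 0 FPKM in WT with copper, whereas without copper it was listed at 0 in all 3 ∆ArAceA cultures and had 10.3, 12.6 and 8.15 FPKM in WT. The order of the strains was opposite in the 2 media with no overlap in either, and the log2 difference of the strains was more positive with copper by 6.55 (SE 0.393, adjusted p = 3.05e-07 by limma). Since 1 group is listed at 0, the size of this fitted value depends on the pseudocount and is no measure of a fold. It was 11.4 with a pseudocount of 0.1.

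M433DRAFT_357512 followed, at 41.2, 31.9 and 34.4 FPKM in ∆ArAceA and 3.21, 3.27 and 1.76 FPKM in WT with copper. Without copper it had 2.97, 2.22 and 2.18 FPKM in ∆ArAceA and 1.16, 1.58 and 1.44 FPKM in WT. ∆ArAceA with copper stood above the other 3 groups, and the change was 2.79 (SE 0.231, limma adjusted p = 1.36e-06).

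The most negative change was in M433DRAFT_63521, which had similar values in the strains with copper, at 9.21, 6.75 and 6.55 FPKM in ∆ArAceA and 8.62, 7.88 and 8.07 FPKM in WT. There the values overlapped, and the fitted difference of -0.13 was not called (SE 0.101, limma adjusted p = 0.332). Without copper it had 212, 225 and 206 FPKM in ∆ArAceA and 3.78, 3.65 and 4.39 FPKM in WT, so the change was -5.57 (SE 0.143, limma adjusted p = 2.06e-11). M433DRAFT_310551, described above, was next with a change of -4.96 (SE 0.105, limma adjusted p = 4.89e-12).

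**Figure D4:**
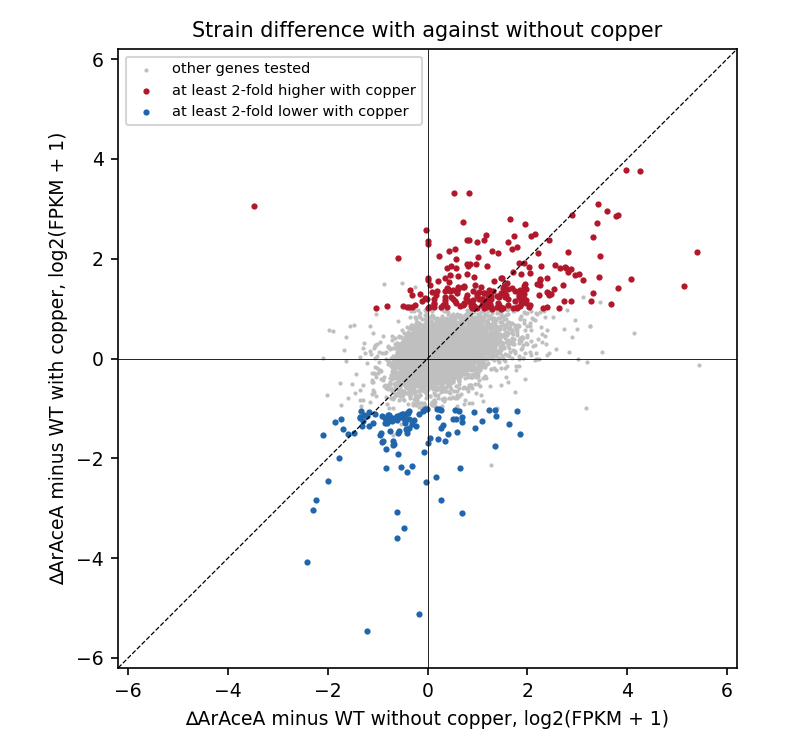
Fitted difference of ∆ArAceA from WT with copper (vertical axis) against that without copper (horizontal axis), both as log2(FPKM + 1), 1 point per gene tested; red and blue points are the 238 and 114 genes at least 2-fold higher or lower with copper, and the dashed line marks equal differences. Most red points lie right of 0, 195 of 238 being called higher without copper too, while the blue points lie on both sides of 0.

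**Figure D5:**
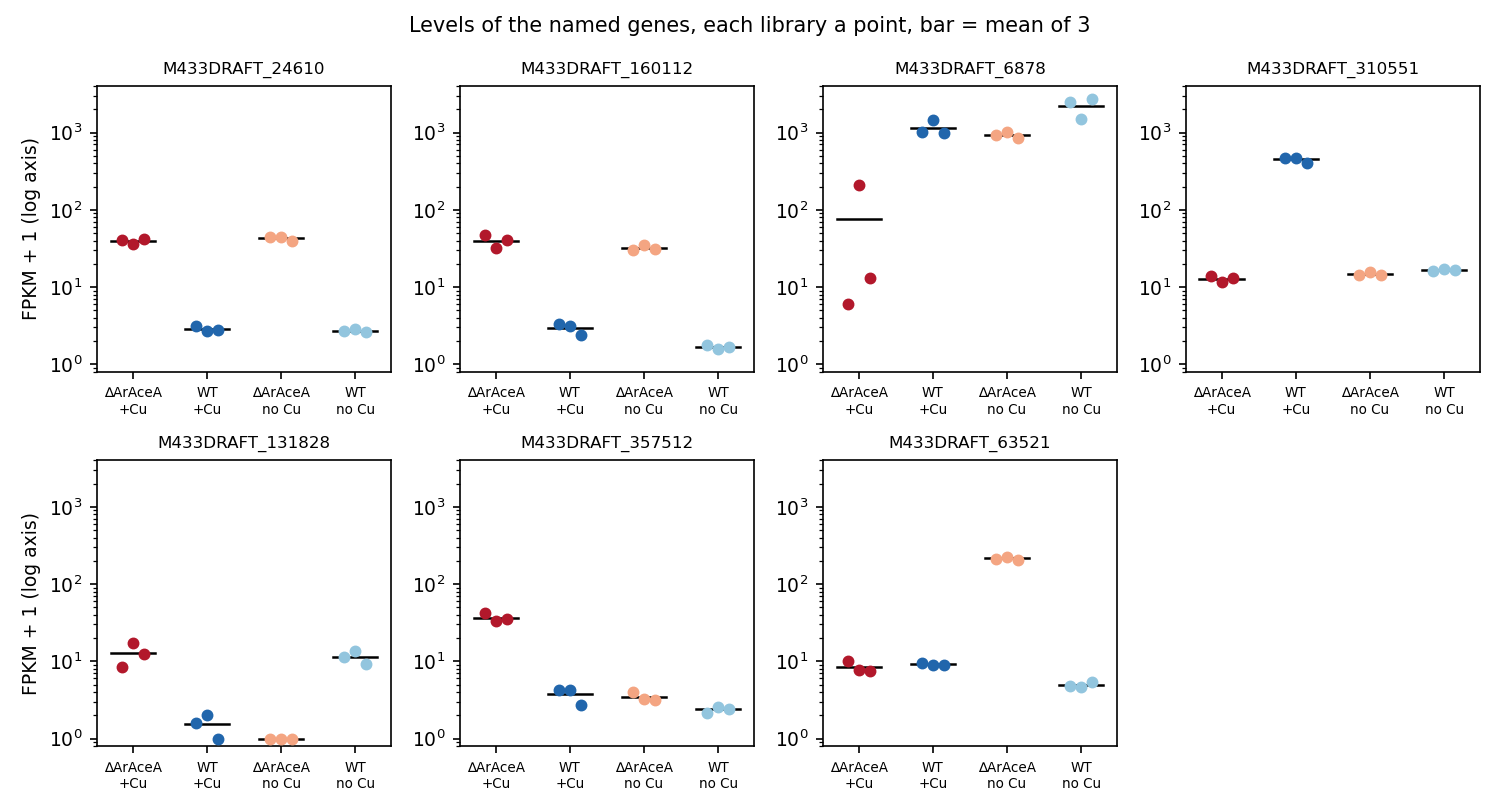
FPKM plus 1 (log axis) of the 7 named genes in each of the 12 libraries, with ∆ArAceA left of WT, first with copper and then without; each point is 1 culture and each bar the mean of 3. In M433DRAFT_24610 and M433DRAFT_160112 both ∆ArAceA groups are high, in M433DRAFT_310551 only WT with copper is high, and in M433DRAFT_6878 the ∆ArAceA cultures with copper range from 5.09 to 209 FPKM.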

How the data were processed

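The authors deposited FPKM per gene and library, and the values in the series table equalled those in the files of the single libraries for all 12 libraries, with 0 genes that differed. The submitters' processing notes name RSEM 1.2.8, HISAT2 2.1.0 and DESeq2 without saying what each was used for. The build and the gene models are not given in the sources used here. In the series table, the 8 columns of log2 ratios and Q values were not used. All FPKM columns matched a sample, leaving 0 unmapped.

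The planned test fitted the unit. It was limma 3.58.1 in R 4.3.3 with trend and robust moderation, on log2(FPKM + 1), in 1 fit over the 4 groups, for genes of at least 1 FPKM in at least 3 of 12 libraries. This left 8741 of 10043 genes. Tests were two-sided, Benjamini-Hochberg adjustment ran over the 8741 genes, and an adjusted p under 0.05 was called. The pseudocount understates changes of genes of low level, so fitted changes are smaller than ratios of means there. The fit was tested on simulated data. The labels describe 3 cultures per group. Depth behind each value is unknown, so no counting error is given.

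Named genes were the 2 with the largest positive and the 2 with the largest negative fitted value of each of the 2 comparisons, among called genes averaging at least 5 FPKM in the higher group with copper and, for the strain difference, without overlap. The comparison, the classes and the naming rule were chosen with earlier results of these data known. The planned gene lists were not run, since the genes carry no names. Replicate numbers did not pair the libraries. Scalings were the median of ratios and the upper quartile of nonzero values. Level classes and sums under other scalings were added after seeing the data.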

Additional observations from a re-analysis of the deposited data

Results flagged for a closer look

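The strain difference, ∆ArAceA minus WT, differed between the media by limma's test of that difference in 4 named genes. The change with copper was 6.55 on the log2 scale for M433DRAFT_131828, a size that depends on the pseudocount because ∆ArAceA without copper is listed at 0 (11.4 with a pseudocount of 0.1). It was 2.79 for M433DRAFT_357512. It was -5.57 for M433DRAFT_63521, whose strains differed without copper and were not called different with it. It was -4.96 for M433DRAFT_310551, where WT with copper was the group that stood apart.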

How the results depend on the processing

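The genes called with copper were 3092 higher and 994 lower as deposited, 1896 and 1877 after median-of-ratios scaling, and 1581 lower by the upper quartile. Tested against a change of 2-fold, limma left 89 higher and 27 lower genes in place of 238 and 114. The difference in the share of the most abundant genes was -0.19 percentage points for 10 genes and -3.04 for 500, in place of -2.66 for 100. The difference in genes listed at 0 was -58 per library, and -130 for genes under 0.5 FPKM. With the replicate number as a block, 239 genes were higher and 113 lower by 2-fold or more, and same-numbered libraries with copper deviated together only at r = -0.017 to 0.066. Further settings were a pseudocount of 0.1, other filters, limma without trend and robust moderation, the copper libraries fitted alone, and the block. None of these moved a count by over 1.5 times or changed a call by which a gene was named. Other calls of the named genes, such as the near misses of M433DRAFT_160112 and M433DRAFT_6878, were not rerun. The pseudocount moved the difference of strain differences of M433DRAFT_131828 to 11.4, in place of 6.55. Leaving out each of the 6 libraries with copper in turn gave 219 to 242 higher and 104 to 131 lower genes of at least 2-fold. The number of reads is unknown, so how far depth limits the calls of genes near 0 FPKM could not be assessed.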
